A study of Mus musculus with 2 samples.

Results

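The Hox cluster genes are the homeobox genes that lie in ordered rows in the 4 mouse clusters Hoxa, Hoxb, Hoxc and Hoxd. The 38 members described here were taken as a named list, 10 in Hoxa, 10 in Hoxb, 9 in Hoxc and 9 in Hoxd, out of 21887 protein-coding genes of the reference. Open chromatin was measured in single nuclei by droplet ATAC-seq, in which a transposase cuts accessible DNA and each recovered fragment marks a pair of cuts. The nuclei came from non-parenchymal cells of the liver, enriched on beads carrying an antibody to the macrophage protein F4/80. The donors were 2 untreated male mice of 8 to 10 weeks from 1 litter, with the genotypes Spta wt/wt and Spta sph/sph, and 1 library was made from each. The sph allele of the spectrin gene weakens the membrane skeleton of red blood cells. Barcodes end in 1 or 2, and no label used here ties either suffix to a genotype, so values are those of library 1 and library 2 and no genotype is compared. With no replicates there is no test and no p-value. Intervals are at the 95% level and cover counting error only.

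Hox genes encode homeodomain transcription factors that set position along the head-to-tail axis of the embryo. Their order along a cluster follows their paralogue number: genes of low number are opened early and act toward the head, and genes of high number act toward the tail, in limbs and in the urogenital tract. Adult endothelial cells and fibroblasts are known to keep part of the Hox pattern of the place where they arose. Polycomb proteins keep silent Hox clusters compact, while trithorax proteins, retinoic acid receptors and Cdx factors help to open them.

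The sequence around the gene start is where much of the open chromatin of a gene lies, and 22 of the 38 members had a promoter sequence in the RefSeq table of build GRCm38.p6. Each stretch holds 300 bases, from 250 bases before to 50 bases after the start, written 5′ to 3′ on the strand of the gene. Each CG dinucleotide is in capitals, since CG-rich promoters are typical targets of Polycomb proteins. Hoxa5 is shown because the fullest 1 kb bin of the 4 clusters lay at its start (chr6:52204538-52204837, minus strand). Hoxa2 is shown for a start open mainly outside Kupffer-like cells (chr6:52164782-52165081, minus strand), and Hoxb4 for the fullest bin of its cluster (chr11:96318017-96318316, plus strand). Hoxd13 (chr2:74667975-74668274, plus strand) and Hoxd1 (chr2:74762730-74763029, plus strand) are shown because they hold at least as many CG dinucleotides as Hoxa5 and gave few fragments.
Hoxa5: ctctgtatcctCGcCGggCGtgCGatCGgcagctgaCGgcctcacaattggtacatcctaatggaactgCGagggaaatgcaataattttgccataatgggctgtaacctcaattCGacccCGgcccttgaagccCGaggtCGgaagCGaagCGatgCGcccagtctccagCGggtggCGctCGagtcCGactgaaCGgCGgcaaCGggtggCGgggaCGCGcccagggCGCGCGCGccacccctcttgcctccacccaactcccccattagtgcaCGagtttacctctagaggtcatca
Hoxa2: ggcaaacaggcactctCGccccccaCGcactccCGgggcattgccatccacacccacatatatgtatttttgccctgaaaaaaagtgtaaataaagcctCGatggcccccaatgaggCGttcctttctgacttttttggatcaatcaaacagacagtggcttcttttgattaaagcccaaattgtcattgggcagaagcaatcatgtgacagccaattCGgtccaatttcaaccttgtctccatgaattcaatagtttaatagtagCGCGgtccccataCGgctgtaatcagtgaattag
Hoxb4: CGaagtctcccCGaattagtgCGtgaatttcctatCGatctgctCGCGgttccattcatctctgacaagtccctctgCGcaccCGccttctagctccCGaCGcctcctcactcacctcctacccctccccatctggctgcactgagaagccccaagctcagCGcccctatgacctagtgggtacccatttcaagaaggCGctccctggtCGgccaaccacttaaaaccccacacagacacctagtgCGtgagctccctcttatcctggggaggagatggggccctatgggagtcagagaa
Hoxd13: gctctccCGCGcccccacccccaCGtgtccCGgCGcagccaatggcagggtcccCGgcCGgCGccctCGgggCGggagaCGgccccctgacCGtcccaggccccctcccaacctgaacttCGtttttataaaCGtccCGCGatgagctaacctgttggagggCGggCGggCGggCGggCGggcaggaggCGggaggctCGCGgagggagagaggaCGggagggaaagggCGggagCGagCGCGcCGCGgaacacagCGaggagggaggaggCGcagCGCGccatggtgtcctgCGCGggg
Hoxd1: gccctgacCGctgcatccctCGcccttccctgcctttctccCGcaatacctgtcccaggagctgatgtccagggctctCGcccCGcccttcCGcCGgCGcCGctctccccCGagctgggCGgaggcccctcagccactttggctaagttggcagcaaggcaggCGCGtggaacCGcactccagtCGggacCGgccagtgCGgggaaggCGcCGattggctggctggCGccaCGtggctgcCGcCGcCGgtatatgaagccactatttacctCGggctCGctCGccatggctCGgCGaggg

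The promoter of Hoxa5 holds 29 CG dinucleotides, that of Hoxd1 29, that of Hoxd13 37, that of Hoxb4 14 and that of Hoxa2 9. Within 1 kb on each side of the Hoxa5 start, endothelial-like cells held 73 fragments in library 1 and 72 in library 2. At the start of Hoxd13 the same cells held 1 and 1, and at that of Hoxd1 they held 0 and 0. In endothelial-like cells a similar number of CG dinucleotides was thus found at an open start and at nearly closed ones. Kupffer-like cells held 33 and 25 fragments at the Hoxa5 start, 2 and 10 at that of Hoxd13 and 0 and 12 at that of Hoxd1. The median of the 22 promoters was 13.5 CG dinucleotides, beside 13 over 17492 promoters of the same length from protein-coding genes. The letters TGATNNAT, known as a site bound by Hox and Pbx proteins together, were searched on both strands with overlapping matches counted. They stood in 3 of the 22 promoters (13.6%), those of Hoxa2, Hoxb1 and Hoxb8, beside 7.83% of all promoters in the table.

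Library 1 held 11401694 fragments and 637 called cells, and library 2 held 21656110 fragments and 575 called cells, with 0 cell barcodes in common. The median called cell had 13220 and 13186 fragments, but the libraries differed in other measures. The median share of a called cell's fragments in peaks was 72.1% in library 1 and 53.7% in library 2. Called cells held 83.2% and 56.2% of all fragments, and there were 5.29 and 9.08 read pairs per fragment. Library 2 stood apart in its pile-ups, 20 kb bins in which 1 cell had at least 10 fragments and at least 10 times the number foreseen from its depth. In cells that passed the filter, pile-ups held 12.1% of its fragments and 21.3% of those over the Hox clusters, against 0.645% and 0% in library 1. For this share a cluster runs from its first to its last member, gaps included, with 2 kb and a further 5 kb on each side. Clustering within each library, with the bins of the Hox clusters left out, gave Kupffer-like cells (331 and 262), endothelial-like cells (129 and 149) and stellate or fibroblast-like cells (66 and 27). It also gave 28 hepatocyte-like cells in library 1 and cells that stayed unnamed (55 and 124). Kupffer cells are the resident macrophages of the liver, and stellate cells its pericyte-like mesenchymal cells.

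Every class carried its own markers and a lower level of those of the others. In CPM, counts per 1000000 fragments of the class, the 12 Kupffer markers summed to 1103 and 685 in Kupffer-like cells, to 153 and 155 in endothelial-like and to 97.3 and 185 in stellate or fibroblast-like cells. The 12 endothelial markers summed to 2338 and 1298 in endothelial-like cells, to 603 and 529 in Kupffer-like cells and to 339 and 581 in stellate or fibroblast-like cells. The 12 stellate or fibroblast markers summed to 1574 and 1062 in their own class and to between 217 and 268 in the other 2 classes. The 10 hepatocyte markers summed to between 60.0 and 125 in the 3 classes. In stellate or fibroblast-like cells 1 of the 12 Kupffer markers was at 0 in library 1, and 1 of the 12 endothelial markers in each library. Of the 10 hepatocyte markers, 1 was at 0 in endothelial-like cells of each library and 2 in stellate or fibroblast-like cells of library 2. The part of other classes' fragments in the Hox values was not tested.

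Over the called cells, 2178 fragments of library 1 (230 CPM) and 3328 of library 2 (273 CPM) overlapped a member's gene body or the 2 kb on each side of it. At least 1 such fragment was seen in 76.9% of the cells of library 1 and 78.3% of those of library 2. Windows of neighbours overlap, and the annotated body of Hoxa3 reaches across Hoxa4, Hoxa5 and Hoxa6, as that of Hoxb3 reaches across Hoxb4. A fragment can therefore count for several members, while sums over a cluster count it once. The 2 cells with most Hox fragments gave 2.66% of them in library 1 and 11.1% in library 2, where those 2 cells held 4.80% of all fragments.

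Hoxa and Hoxb were the open clusters of this liver preparation, and Hoxc and Hoxd gave far fewer fragments in library 1. Over all called cells Hoxa had 1011 fragments (107 CPM) in library 1 and 1127 (92.6 CPM) in library 2. Hoxb had 817 (86.1 CPM) and 1041 (85.5 CPM), Hoxc 222 (23.4 CPM) and 477 (39.2 CPM), and Hoxd 128 (13.5 CPM) and 683 (56.1 CPM). The libraries were thus close for Hoxa and Hoxb and apart for Hoxc and Hoxd.

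Per kb of window, the fullest member of Hoxa was Hoxa5, a gene of lung and rib patterning, with 2.19 CPM per kb in library 1 and 1.92 in library 2. The fullest of Hoxb was Hoxb4, known from blood stem cells, with 1.82 and 1.86. In Hoxc it was Hoxc9 with 0.453 and 0.770, and in Hoxd it was Hoxd13 in library 1 with 0.314 and Hoxd9 in library 2 with 0.777. Of all protein-coding genes, 82.2% and 85.8% lay below Hoxa5 on this scale, and 41.5% and 59.8% below Hoxc9. Hoxd4 had a lower level per kb than most genes in library 1, with 13.9% of genes below it, and 59.8% in library 2. These levels of library 2 rest partly on few cells. For each gene, the 2 cells with most gave 48.6% of the Hoxc9, 57.4% of the Hoxd9 and 56.2% of the Hoxd4 fragments. For Hoxa5 and Hoxb4 the share was 7.5% and 15.6%. The lowest member in library 1 was Hoxd1 with 0.0513 CPM per kb.

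**Figure D1:**
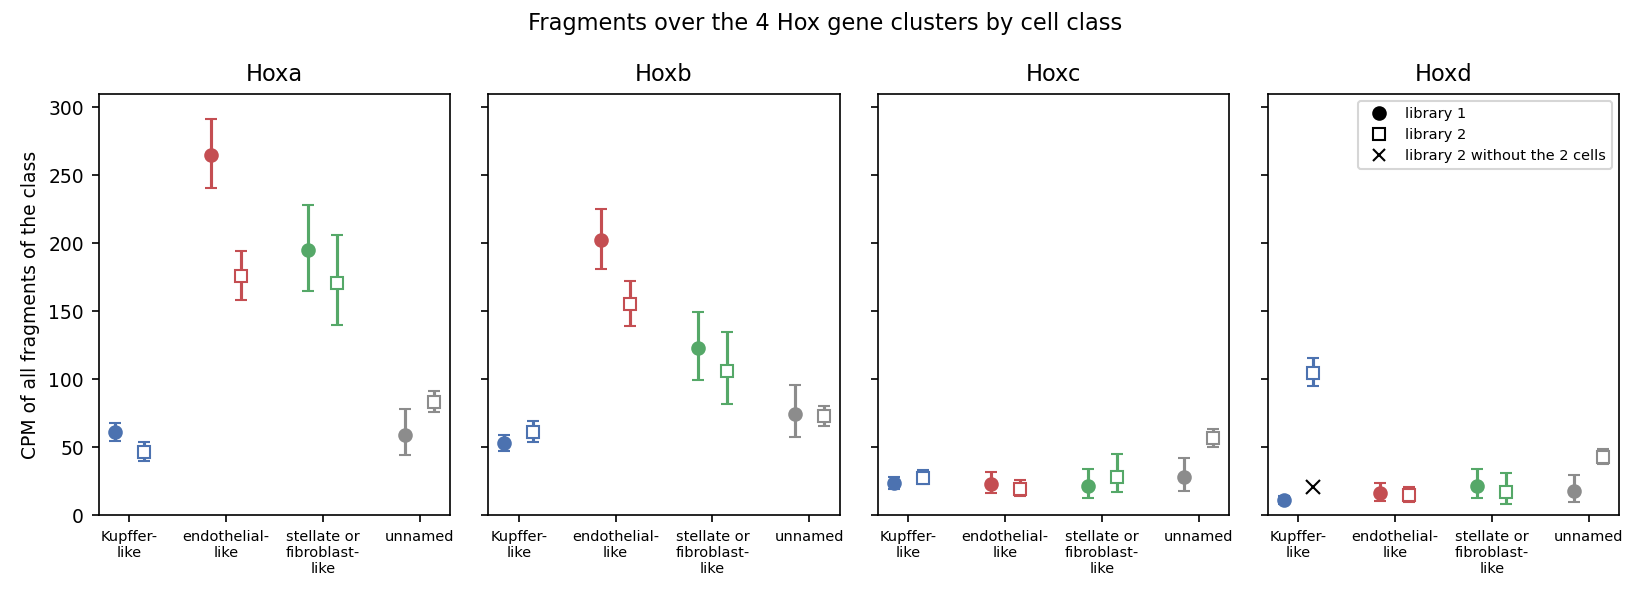
Level of the 4 Hox clusters in CPM in the 3 named classes and the unnamed cells of each library, with 95% counting intervals as bars. The cross is the Kupffer-like level of library 2 without the 2 cells with most Hoxd fragments. Hoxa and Hoxb stand lowest in Kupffer-like cells among the 3 named classes (60.9 and 46.8 CPM for Hoxa), and Hoxd stands apart in the Kupffer-like cells of library 2 at 105 CPM.

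Hoxa was more open in endothelial-like and in stellate or fibroblast-like cells than in Kupffer-like cells, in both libraries. In Kupffer-like cells Hoxa had 347 fragments in library 1, or 60.9 CPM (54.7 to 67.7), and 182 in library 2, or 46.8 CPM (40.3 to 54.2). In endothelial-like cells it had 439 fragments, or 265 CPM (241 to 291), and 382, or 176 CPM (158 to 194). In stellate or fibroblast-like cells it had 154, or 195 CPM (165 to 228), and 108, or 171 CPM (140 to 206). The intervals of both other classes lay above those of Kupffer-like cells in each library. The share of cells with a Hoxa fragment was 52.9% and 37.0% in Kupffer-like cells, 82.9% and 69.1% in endothelial-like cells and 78.8% and 81.5% in stellate or fibroblast-like cells.

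Ratios between classes are log2 ratios of CPM taken relative to the median gene with at least 50 fragments in the 2 groups together, and 2-fold or more from that gene is called higher or lower. For Hoxa the ratio of endothelial-like to Kupffer-like cells was 2.13 (1.92 to 2.33) in library 1 and 1.86 (1.61 to 2.13) in library 2. For Hoxb it was 1.94 (1.71 to 2.17) and 1.30 (1.05 to 1.54). Both clusters were called higher in endothelial-like cells in each library, but the call of Hoxb in library 2 rests on few cells. It was 0.83 without the 2 cells of each library with most Hoxb fragments, 0.73 with pile-ups masked and 0.92 with cells thinned to 5000 fragments, all under 2-fold. Of the 38 members, 13 reached 50 fragments in library 1, and 11 of them were higher in endothelial-like cells and 0 lower, beside 9.54% of all genes tested that were higher and 11.7% that were lower. In library 2, 14 reached it, 8 were higher and 3 lower, beside 9.76% and 10.6% of all genes, and 5 were higher once the 2 cells with most fragments of the same cluster were left out. These counts are a description, since members that passed the minimum often did so through the class where they were high. The median ratio over all 38 members was 0.96 in library 1 and 0.19 in library 2, and that of the members tested was 2.05 and 1.2, where the median of all genes is 0 by construction.

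Among the anterior Hoxa genes, Hoxa2 patterns the hindbrain and the second pharyngeal arch. It had 22 and 10 fragments in Kupffer-like cells (3.86 and 2.57 CPM), and 36 and 30 in endothelial-like cells (21.7 and 13.8 CPM). Its ratio of endothelial-like to Kupffer-like cells was 2.49 (1.69 to 3.33) in library 1, and in library 2 it had fewer than 50 fragments.

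Hoxa3, which acts in the thymus and parathyroid and in vessel repair, has a window of 48.0 kb that also counts its neighbours. It had 171 and 83 fragments in Kupffer-like cells and 341 and 289 in endothelial-like cells (206 and 133 CPM). The ratio was 2.78 (2.51 to 3.06) and 2.59 (2.24 to 2.97). A Hoxa3 fragment was seen in 77.5% and 63.1% of endothelial-like cells and in 33.8% and 21.4% of Kupffer-like cells. Hoxa4 had 42 and 12 fragments in Kupffer-like cells (7.37 and 3.09 CPM), and 35 and 41 in endothelial-like cells (21.1 and 18.9 CPM), with ratios of 1.53 (0.84 to 2.21) and 2.53 (1.61 to 3.63). All 3 anterior genes of Hoxa were thus higher in endothelial-like cells wherever the minimum was reached.

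The central genes Hoxa5 and Hoxa6 share much of their windows. Hoxa5 had 41 and 27 fragments in Kupffer-like cells (7.20 and 6.95 CPM), and 82 and 83 in endothelial-like cells (49.5 and 38.2 CPM). Its ratio was 2.78 (2.23 to 3.37) in library 1 and 2.40 (1.77 to 3.10) in library 2. It was seen in 41.1% and 31.5% of endothelial-like cells and in 10.3% and 7.63% of Kupffer-like cells. Hoxa6 had 43 and 27 fragments in Kupffer-like cells and 81 and 87 in endothelial-like cells, with ratios of 2.69 (2.15 to 3.27) and 2.47 (1.85 to 3.16). Both genes were at close levels in the 2 libraries within each class.

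Posterior Hoxa genes had ratios under 2-fold where the minimum was reached. Hoxa9, a gene of blood progenitors, had 50 and 35 fragments in Kupffer-like cells (8.78 and 9.01 CPM) and 12 and 29 in endothelial-like cells (7.25 and 13.3 CPM), with ratios of -0.23 (-1.32 to 0.66) and 0.53 (-0.24 to 1.28). The interval included 0 in both libraries. Hoxa10, known from the uterus and blood progenitors, had 46 and 12 fragments in Kupffer-like cells (8.08 and 3.09 CPM) and 26 and 15 in endothelial-like cells (15.7 and 6.90 CPM), with a ratio of 0.98 (0.21 to 1.69) in library 1, just short of 2-fold. Hoxa13, a gene of the digits and the hindgut, had 30 and 17 fragments in Kupffer-like cells (5.27 and 4.38 CPM) and 11 and 12 in endothelial-like cells (6.64 and 5.52 CPM).

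Hoxb followed the same order of classes with smaller ratios. In Kupffer-like cells it had 302 and 238 fragments, or 53.0 CPM (47.2 to 59.4) and 61.3 CPM (53.7 to 69.6). In endothelial-like cells it had 335 and 337, or 202 CPM (181 to 225) and 155 CPM (139 to 172). A single endothelial-like cell of library 2 held 96 of the 337, where 2.91 were foreseen from its 37355 fragments, and 21.5% of its fragments lay in peaks. Without the 2 cells of each library with most Hoxb fragments the ratio of endothelial-like to Kupffer-like cells in library 2 was 0.83 (0.57 to 1.10), under 2-fold, and in library 1 it was 1.87 (1.64 to 2.11). With such cells left out, 5 members were higher in library 2 and 11 in library 1.

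Among the Hoxb members that reached 50 fragments in library 1, Hoxb8, Hoxb6 and Hoxb5 had the highest ratios. Hoxb8, which acts in microglia and blood progenitors, had 31 and 34 fragments in Kupffer-like cells (5.44 and 8.75 CPM) and 46 and 44 in endothelial-like cells (27.8 and 20.2 CPM). Its ratio was 2.35 (1.67 to 3.06) in library 1 and 1.16 (0.49 to 1.86) in library 2. Hoxb6 had 43 and 50 fragments in Kupffer-like cells (7.55 and 12.9 CPM) and 52 and 49 in endothelial-like cells (31.4 and 22.5 CPM), with ratios of 2.06 (1.45 to 2.68) and 0.77 (0.17 to 1.36). Hoxb5, a gene of endothelial precursors and the enteric nervous system, had 30 and 31 fragments in Kupffer-like cells and 36 and 42 in endothelial-like cells, with ratios of 2.05 (1.31 to 2.80) and 1.23 (0.53 to 1.95). In library 2, without the 2 cells named above, the ratios of Hoxb8, Hoxb6 and Hoxb5 were 0.90, 0.39 and 0.86, so that all 3 fell short of 2-fold there.

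Hoxb7 had 32 and 22 fragments in Kupffer-like cells (5.62 and 5.66 CPM) and 31 and 37 in endothelial-like cells (18.7 and 17.0 CPM), with ratios of 1.74 (0.98 to 2.50) and 1.53 (0.75 to 2.38). It had fewer than 50 fragments in library 2 once those cells were left out. Hoxb3 had 168 and 103 fragments in Kupffer-like cells (29.5 and 26.5 CPM) and 185 and 187 in endothelial-like cells (112 and 86.0 CPM), and its ratios were 1.93 (1.62 to 2.24) and 1.65 (1.30 to 2.02). Its ratio in library 2 stayed past 2-fold without those cells, at 1.17. Hoxb4 had 56 and 43 fragments in Kupffer-like cells (9.83 and 11.1 CPM) and 36 and 46 in endothelial-like cells (21.7 and 21.2 CPM), with ratios of 1.16 (0.50 to 1.78) and 0.89 (0.26 to 1.53), the latter 0.52 without them. Of the Hoxb members that reached 50 fragments in library 1, Hoxb4 had the smallest ratio. Hoxb2, which acts in the hindbrain, had 10 and 15 fragments in Kupffer-like cells and 28 and 23 in endothelial-like cells (16.9 and 10.6 CPM), under the minimum in both libraries.

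**Figure D2:**
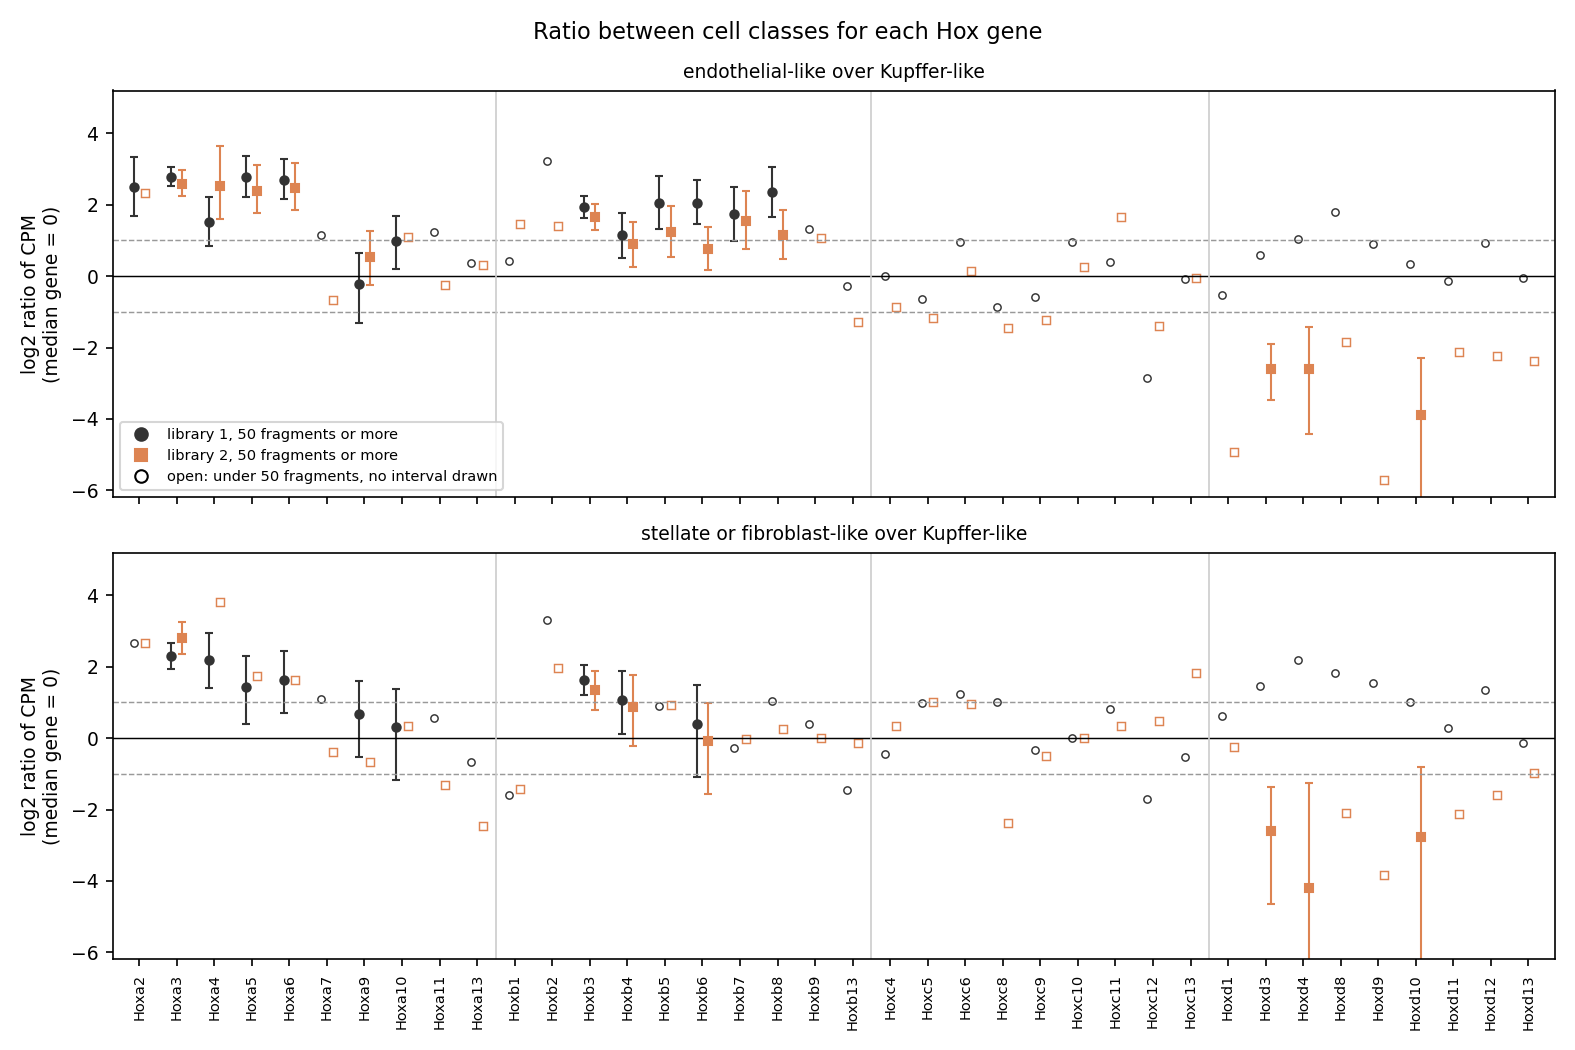
Log2 ratio of endothelial-like to Kupffer-like and of stellate or fibroblast-like to Kupffer-like cells, relative to the median gene, for every member in each library. Filled symbols have at least 50 fragments in the groups compared and carry 95% counting intervals, some cut by the axis, and open symbols have fewer. Dashed lines mark 2-fold, and Hoxd4 of library 2 in the lower panel has 0 fragments in the upper term of its ratio, so its place depends on the 0.5 added. Hoxa3, Hoxa5 and Hoxa6 lie between 2.40 and 2.78 in both libraries for endothelial-like cells, and Hoxd3, Hoxd4 and Hoxd10 of library 2 lie below 0.

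Stellate or fibroblast-like cells also had more open Hoxa than Kupffer-like cells. The ratio was 1.77 (1.48 to 2.04) in library 1 and 1.92 (1.56 to 2.27) in library 2. For Hoxb these cells had 97 and 67 fragments, or 123 CPM (99.4 to 150) and 106 CPM (82.0 to 134), with ratios of 1.30 (0.95 to 1.63) and 0.85 (0.43 to 1.24). Within 1 kb of the gene starts alone, the Hoxb ratio of library 1 was 0.22 (-0.65 to 0.93). Of 9 members that reached 50 fragments in library 1, 6 were higher and 0 lower, beside 11.5% and 13% of all genes. In library 2, 7 reached it, 2 were higher and 3 lower, beside 11.5% and 11.3%. The median over all 38 members was 0.95 and -0.00, and that over the members tested 1.42 and -0.08.

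Of the members that reached 50 fragments, Hoxa3 led in both libraries, and Hoxa4 came next in library 1. Hoxa3 had 110 and 91 fragments in stellate or fibroblast-like cells (139 and 144 CPM), with ratios to Kupffer-like cells of 2.30 (1.94 to 2.65) and 2.80 (2.36 to 3.25), and was seen in 68.2% and 77.8% of the cells. Hoxa4 had 25 and 27 (31.6 and 42.7 CPM), with a ratio of 2.20 (1.41 to 2.94) in library 1, and under 50 fragments in library 2. Hoxa5 had 14 and 14 (17.7 and 22.1 CPM), with a ratio of 1.42 (0.40 to 2.29) in library 1. Hoxa6 had 17 and 13 (21.5 and 20.5 CPM), with 1.62 (0.69 to 2.44). The Hoxa3 window contains the other 3 genes, so these ratios are not independent.

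In Hoxb, Hoxb3 had 68 and 41 fragments in stellate or fibroblast-like cells (86.0 and 64.8 CPM), with ratios of 1.64 (1.2 to 2.05) and 1.35 (0.78 to 1.88). Hoxb4 had 15 and 12 (19.0 and 19.0 CPM), with 1.07 (0.11 to 1.88) and 0.87 (-0.23 to 1.78), and within 1 kb of its start the ratio of library 1 turned to -0.94 (-3.47 to 0.49). Hoxb6 had 7 and 7, with 0.40 (-1.08 to 1.48) and -0.08 (-1.55 to 0.98), so that its interval included 0 in both libraries. Hoxa9 and Hoxa10 had 10 and 7 fragments in library 1, with ratios of 0.67 (-0.53 to 1.61) and 0.30 (-1.17 to 1.38).

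Set directly against endothelial-like cells, the stellate or fibroblast-like class of library 1 had less of several central genes, and that of library 2 had more of Hoxa4. For Hoxa as a whole the ratio was -0.35 (-0.63 to -0.08) in library 1 and 0.04 in library 2, and for Hoxb -0.62 (-0.97 to -0.30) and -0.47 (-0.88 to -0.09). In library 1 Hoxb6 had -1.65 (-3.12 to -0.59), Hoxa5 -1.35 (-2.32 to -0.56), Hoxb8 -1.29 (-2.66 to -0.27) and Hoxa6 -1.06 (-1.94 to -0.33). In library 2 the same genes had -0.87 (-2.34 to 0.20), -0.67 (-1.64 to 0.11), -0.92 (-2.54 to 0.22) and -0.84 (-1.85 to -0.04), on the same side and within 2-fold. Hoxa4 had 0.68 (-0.13 to 1.46) and 1.26 (0.50 to 1.99). Of 9 members tested in each library, 0 were higher and 4 lower in library 1, beside 8.24% and 7.69% of all genes, and 1 was higher and 0 lower in library 2, beside 8.66% and 8.93%.

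The position of the open chromatin along the clusters was read in 1 kb bins and around gene starts. For the 16 members without a promoter in the table, the start was taken as the gene end with more fragments, a choice that uses these data. For Hoxb3, Hoxc6, Hoxc11 and Hoxc12 this was the end of higher coordinate. The Hoxb and Hoxc members with a promoter all lie on the plus strand, where a gene starts at its lower coordinate. The start windows of those members, and the Hoxb and Hoxc values that include them, may thus cover the far end of the gene. Paralogues 1 to 4 are called anterior, 5 to 8 central and 9 to 13 posterior. Around the starts of the central Hoxa genes, endothelial-like cells had 8.35 and 6.21 CPM per kb, around the anterior ones 5.33 and 4.06, and around the posterior ones 1.51 and 0.977. Stellate or fibroblast-like cells had 4.00 and 5.53 at the anterior starts, 3.58 and 3.16 at the central ones and 1.11 and 0.197 at the posterior ones. Kupffer-like cells had 1.38 and 0.686, 1.43 and 1.29, and 0.724 and 0.611 in the same order. The posterior starts of Hoxa were the lowest block in these 3 classes and both libraries. In Kupffer-like cells of library 2 they lay close to the anterior ones, on 19 and 16 fragments. Unnamed cells did not follow this order, with 1.38 and 2.06 at the anterior starts, 0.593 and 1.23 at the central and 1.63 and 1.68 at the posterior ones. Hepatocyte-like cells had 0, 1 and 2 fragments in the 3 blocks.

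In Hoxb, endothelial-like cells had 3.47 and 2.93 CPM per kb at the anterior starts, 3.93 and 3.33 at the central ones and 0.151 and 0.920 at the posterior pair. Kupffer-like cells had 1.23 and 1.54, 0.922 and 1.38, and 0.351 and 0.193. Stellate or fibroblast-like cells had 1.58 and 2.96, 0.948 and 1.97, and 0.316 and 0. The posterior genes, Hoxb9 and Hoxb13, were again the lowest block in each of these 3 classes and both libraries, on 0 to 8 fragments each time. In unnamed cells of library 2 they had 1.11, above the 0.829 at the central starts.

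The fullest bins were few. In Hoxa 9 of 87 bins held at least 50 fragments over all cells and the 5 fullest held 34.3%, in Hoxb 7 of 97 did and the 5 fullest held 29.6%, and in Hoxc and Hoxd 0 did. The fullest bin of all, chr6:52204001-52205000, held the start of Hoxa5 and 230 fragments. It had 30 and 23 fragments in Kupffer-like cells (5.27 and 5.92 CPM), 63 and 70 in endothelial-like cells (38 and 32.2 CPM) and 10 and 10 in stellate or fibroblast-like cells (12.6 and 15.8 CPM). The ratio of endothelial-like to Kupffer-like cells there was 2.85 (2.21 to 3.54) and 2.38 (1.70 to 3.15). The CG-rich Hoxa5 promoter printed above lies in this bin.

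Some bins of the annotated Hoxa3 body lay far from any start and differed between the classes. The bin chr6:52170001-52171000, 5.67 kb from the start of Hoxa2, had 83 and 28 fragments in endothelial-like cells (50.1 and 12.9 CPM) and 11 and 3 in Kupffer-like cells (1.93 and 0.772 CPM). Its ratio was 4.65 (3.79 to 5.76) in library 1 and 3.82 (2.32 to 6.38) in library 2. Stellate or fibroblast-like cells had 9 and 4 fragments there. The bin chr6:52172001-52173000, 7.67 kb from the same start, had the opposite order of these 2 classes: 15 and 14 fragments in stellate or fibroblast-like cells (19.0 and 22.1 CPM) and 16 and 22 in endothelial-like cells (9.66 and 10.1 CPM). The ratio of stellate or fibroblast-like to endothelial-like cells was 1.07 (-0.05 to 2.18), an interval that includes 0, and 1.22 (0.12 to 2.23). Bins 2 kb apart thus differed in the class where they were most open, and both were chosen for description after their values were seen.

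The bin with the start of Hoxb4, chr11:96318001-96319000, held 156 fragments. It had 35 and 35 fragments in Kupffer-like cells (6.15 and 9.01 CPM) and 21 and 18 in endothelial-like cells (12.7 and 8.28 CPM). The ratios of endothelial-like to Kupffer-like cells there were 1.06 and -0.14. The bin chr11:96311001-96312000, inside the Hoxb3 body and 6.77 kb from the Hoxb4 start, had 48 and 18 fragments in Kupffer-like cells (8.43 and 4.63 CPM) and 19 and 13 in endothelial-like cells (11.5 and 5.98 CPM), with 0.47 and 0.34. The bin at the Hoxb5 start, chr11:96303001-96304000, had 24 and 20 in Kupffer-like cells and 22 and 23 in endothelial-like cells, with 1.67 and 0.99. By point value the bins at the Hoxb4 and Hoxb5 starts were past 2-fold in library 1 and under it in library 2. Within 1 kb on each side of the Hoxb4 start the ratio was 0.73 (-0.05 to 1.46) and -0.13 (-0.99 to 0.66), under 2-fold in both libraries. At the Hoxb5 start it was 1.42 (0.57 to 2.25) and 0.76 (-0.07 to 1.60). For both genes the intervals of the libraries overlapped.

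**Figure D3:**
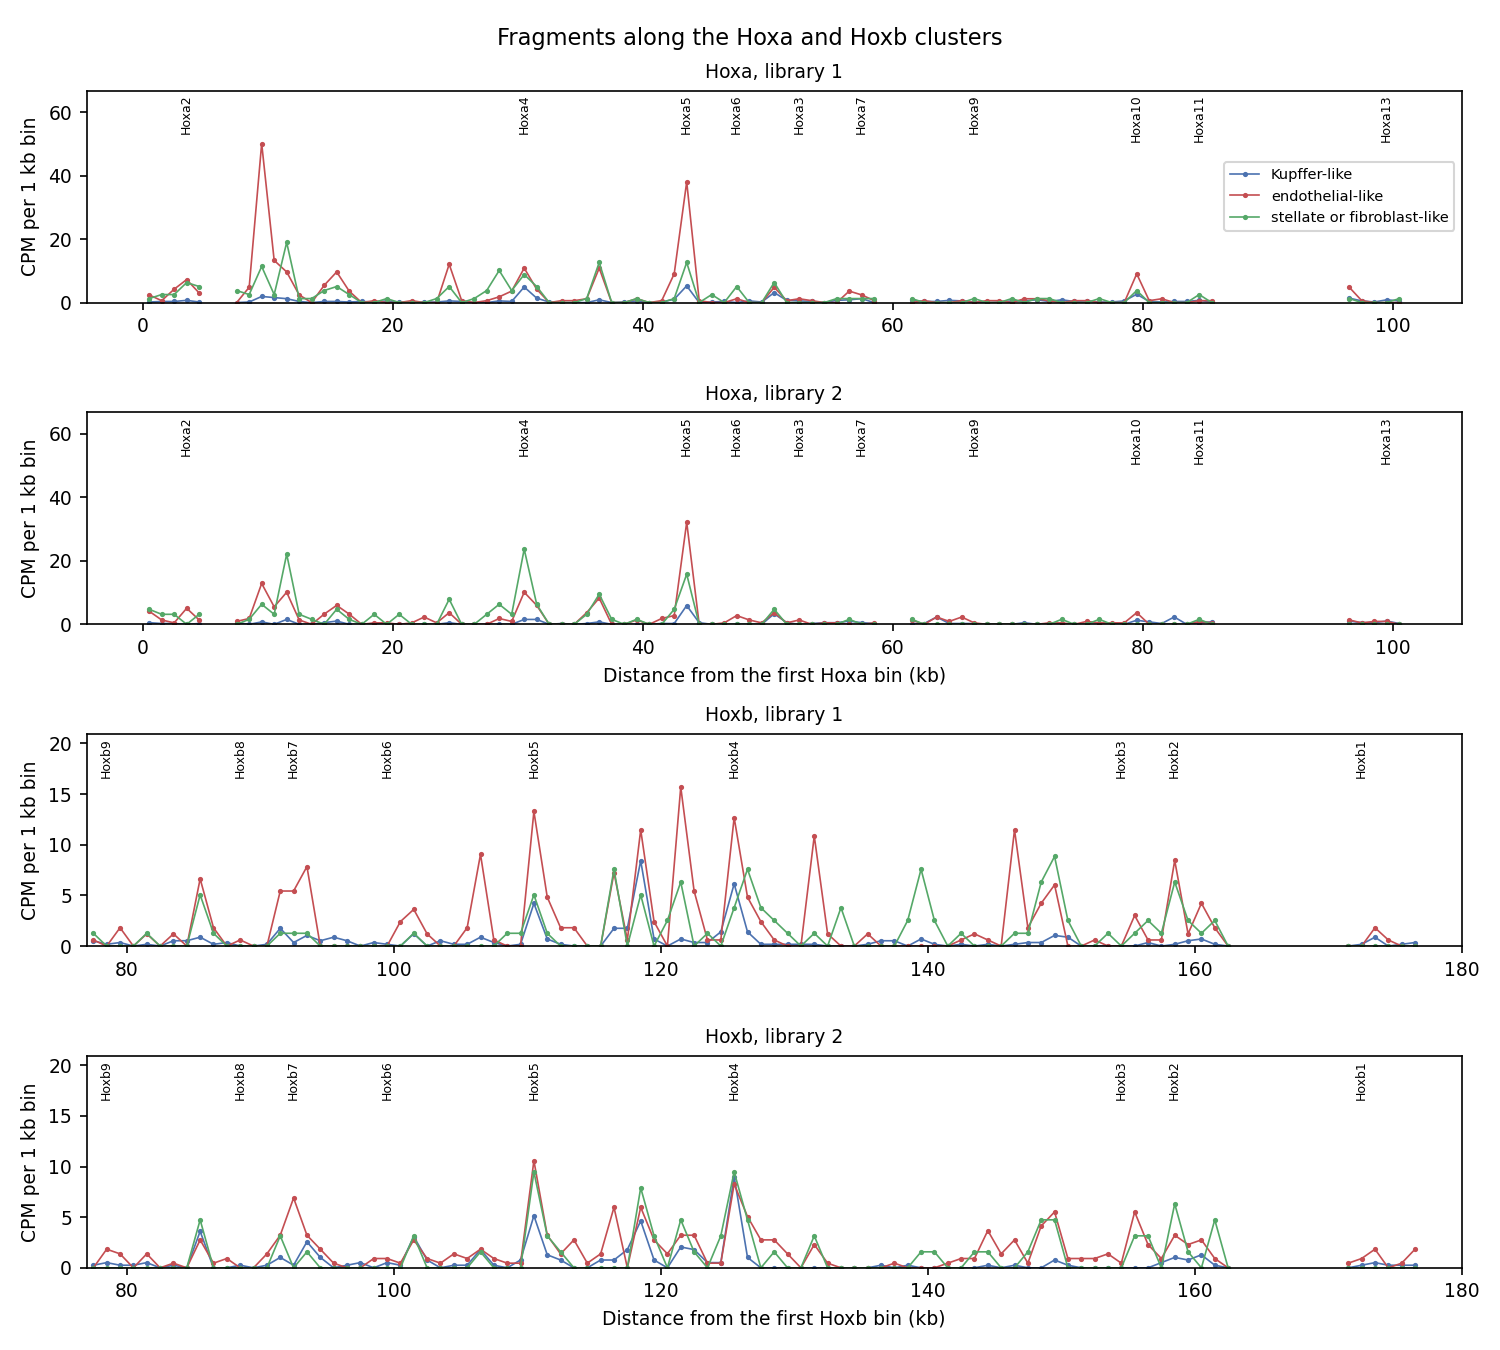
CPM in 1 kb bins (vertical axis) along Hoxa and along Hoxb from Hoxb9 to Hoxb1, by distance in kb from the first bin of the cluster, with 1 line for each named class and a panel for each library. Gene names stand at their starts as taken here, which for members without a promoter is the gene end with more fragments. Gaps are stretches outside the members' windows. The tallest endothelial-like bin of library 1 in Hoxa reaches 50.1 CPM in the annotated Hoxa3 body, and Kupffer-like bins stay at or below 9.01 CPM.

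Hoxc was low in the 3 named classes, with ratios to Kupffer-like cells under 2-fold. It had 134 and 108 fragments in Kupffer-like cells (23.5 and 27.8 CPM) and 38 and 42 in endothelial-like cells (22.9 and 19.3 CPM). Stellate or fibroblast-like cells had 17 and 18 (21.5 and 28.4 CPM). A single Kupffer-like cell of library 2 held 26 of the 108, where 1.07 were foreseen from its 28843 fragments. The Hoxc ratios of library 2 given here include this cell. The ratio of endothelial-like to Kupffer-like cells was -0.02 (-0.59 to 0.50) in library 1 and -0.56 (-1.12 to -0.04) in library 2. Stellate or fibroblast-like against Kupffer-like cells gave -0.01 and 0.12. In library 2 the first ratio was -1.11 (-2.15 to -0.23) within 1 kb of the gene starts, and the second was -1.05 with thinned cells, with an interval that includes 0, both past 2-fold. None of the 9 Hoxc members reached 50 fragments in a comparison between classes, so single genes could not be compared at this depth. The fullest, Hoxc9, a gene of the thoracic axis and motor neurons, had 33 and 22 fragments in Kupffer-like cells, 6 and 5 in endothelial-like cells and 3 and 2 in stellate or fibroblast-like cells.

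In library 2 most Hoxc fragments lay in cells that could not be named. The unnamed cells had 307 of the 477 (56.5 CPM, beside 39.2 over all called cells). In library 1 they had 24 of the 222 (28.5 CPM, beside 23.4). The counts also follow the size of the group, which was 124 cells in library 2 and 55 in library 1. The best marker list of the unnamed cells was dendritic in library 2 and monocyte in library 1. Their medians of fragments in peaks were 55% and 74%, beside 53.7% and 72.1% over all called cells of those libraries. Flt3 and AI467606 were among the 10 leading genes of both groups. At Leiden resolution 1, library 2 had a separate unnamed cluster of 37 cells, with medians of 66670 fragments and 23.7% in peaks. Hoxc9 had 78 fragments in the unnamed cells of library 2, of which 39 came from 1 cell, and Hoxc4 had 46. The 2 cells with most Hoxc fragments were unnamed and held 39 and 29, or 14.3% of those in library 2. In the same cells of library 2, Hoxa stood at 83.2 CPM, Hoxb at 72.9 and Hoxd at 42.9, against 59.3, 74.7 and 17.8 in the unnamed cells of library 1. The cell with most fragments of library 2 was in this group, with 572237 fragments of which 17.3% lay in peaks. Hepatocyte-like cells were seen in library 1 alone. They had 14 Hoxa fragments (30.9 CPM), 13 of Hoxb (28.7 CPM), 8 of Hoxc (17.7 CPM) and 5 of Hoxd (11 CPM). Only 5 of the 28 cells held a Hoxa and 4 a Hoxb fragment. The 2 cells with most gave 71.4% of these Hoxa and 84.6% of these Hoxb fragments.

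Hoxd was low in every named class of library 1 and high in the Kupffer-like cells of library 2, where 2 cells held most of it. Kupffer-like cells had 64 fragments in library 1, or 11.2 CPM (8.65 to 14.3), and 407 in library 2, or 105 CPM (94.8 to 115). Endothelial-like cells had 27 and 32 (16.3 and 14.7 CPM), and stellate or fibroblast-like cells 17 and 11 (21.5 and 17.4 CPM). Of the 407 fragments, 209 came from 1 cell and 119 from another, together 80.6%. These 2 cells held 48.0% of all Hoxd fragments of the called cells of library 2 and 0.466% of all their fragments. In library 1 the 2 cells with most Hoxd fragments, with 8 and 4, gave 9.38%.

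The first of these cells had 12348 fragments in all, of which 1.69% were Hoxd fragments, where 0.481 fragments were foreseen from its depth. Of its fragments, 52.2% lay in peaks. The second had 44396 fragments, with 2.06 foreseen and 38.6% in peaks. The first cell had 555 fragments within 1000 kb of the middle of the Hoxd cluster, and 553 of them lay in 1 run of 280 kb, from 160 kb before to 120 kb after it. The second had 448, of which 192 lay in a run of 200 kb, from 100 kb before to 100 kb after the middle. The excess thus reached beyond the cluster on both sides in both cells.

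**Figure D4:**
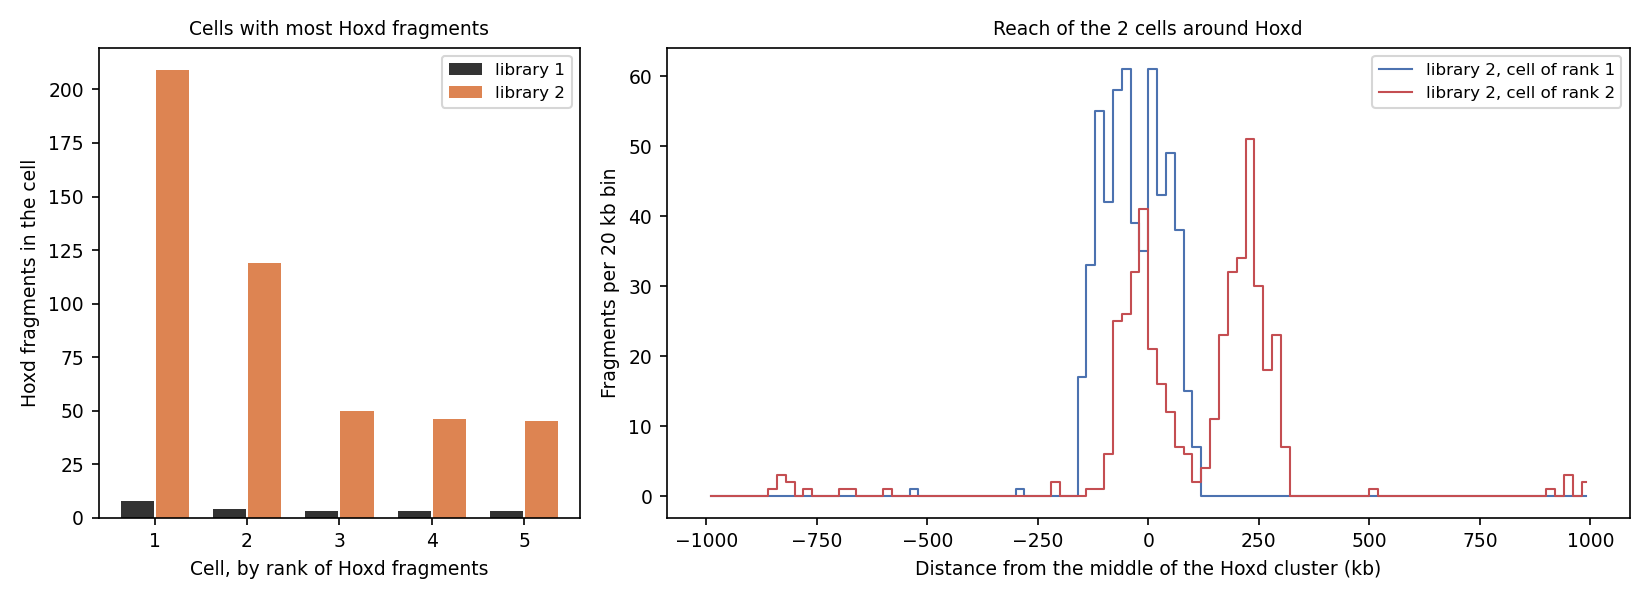
Left, Hoxd fragments in each of the 5 cells with most of them in each library. Right, fragments per 20 kb bin of the 2 cells of library 2 with most Hoxd fragments, by distance in kb from the middle of the Hoxd cluster. In the first cell 553 of 555 fragments fall in 1 stretch of 280 kb, and the second has 192 of 448 in the stretch of 200 kb over the cluster and others in a further stretch.

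Kupffer-like cells of library 2 had 79 Hoxd fragments, or 20.6 CPM, outside the 2 cells, beside 11.2 CPM in library 1. All 9 members were touched. Hoxd3 had 172 fragments in Kupffer-like cells of library 2, of which 141 lay in the 2 cells, which left 31, or 8.10 CPM, beside 4.56 CPM in library 1. Hoxd10 had 64, with 52 in the 2 cells and 3.13 CPM without them, beside 1.58 CPM in library 1. Hoxd4 had 58, with 53 in them and 1.31 CPM without, beside 0.351. Hoxd9 had 45, with 35 in them and 2.61 CPM without, beside 1.05. Evx2, a homeobox gene next to Hoxd13 and no member, had 103 fragments, with 67 in them and 9.40 CPM without, beside 1.23.

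The Hoxd ratios of library 2 rest on these cells. The ratio of endothelial-like to Kupffer-like cells was 0.56 (-0.16 to 1.21) in library 1 and -2.85 (-3.44 to -2.35) in library 2, and without the 2 cells of each library it was 0.74 (0.01 to 1.41) and -0.51 (-1.17 to 0.08). The ratio of stellate or fibroblast-like to Kupffer-like cells was 1.05 (0.16 to 1.81) and -2.48 (-3.55 to -1.69), and without them it was 1.24 and -0.14 (-1.25 to 0.72). The 3 members called lower in endothelial-like cells of library 2 were Hoxd3 with -2.59 (-3.47 to -1.89), Hoxd4 with -2.61 (-4.42 to -1.44) and Hoxd10 with -3.89 (-7.28 to -2.29). The same 3 were called lower in its stellate or fibroblast-like cells, where Hoxd3 had 4 fragments and Hoxd10 had 1. Hoxd4 had 0 there, which allows up to 4.74 CPM. All 3 counts rest on the same Kupffer-like cells of library 2 and are not separate observations.

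Between the libraries, ratios of library 2 to library 1 are taken relative to the median gene, which stood at -0.28 in Kupffer-like, -0.20 in endothelial-like and -0.14 in stellate or fibroblast-like cells before centring. In Kupffer-like cells the ratio was -0.10 (-0.37 to 0.16) for Hoxa and 0.48 (0.23 to 0.73) for Hoxb. It was 0.52 (0.14 to 0.89) for Hoxc and 3.49 (3.11 to 3.90) for Hoxd. The Hoxc ratio includes the single cell that held 26 of the 108 fragments of library 2. The Hoxd ratio was 1.32 (0.82 to 1.85) once the 2 cells of each library with most Hoxd fragments were left out, still past 2-fold with an interval that reaches below it. Of 20 members tested, 6 were higher and 1 lower in library 2, beside 9.18% and 3.09% of all genes. The 6 were Hoxd4 with 5.38 (3.77 to 8.76), Hoxd9 with 3.63 (2.50 to 5.25), Hoxd10 with 3.59 (2.64 to 4.85), Hoxd3 with 3.53 (2.95 to 4.21), Hoxd11 with 2.95 (1.95 to 4.24) and Hoxb6 with 1.04 (0.43 to 1.67). The 1 lower member was Hoxa10 with -1.07 (-2.16 to -0.17). Of the Hoxd members, only Hoxd3 still had 50 fragments without the 2 cells, and its ratio was then 1.32 (0.49 to 2.18).

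In endothelial-like cells the libraries were closer. The ratio of library 2 to library 1 was -0.40 (-0.60 to -0.19) for Hoxa, -0.19 (-0.41 to 0.04) for Hoxb, -0.05 for Hoxc and 0.05 for Hoxd, and Hoxb had -0.58 (-0.83 to -0.33) without the 2 cells. Of 12 members tested 0 were higher and 0 lower, beside 7.22% and 2.58% of all genes, and the range was from Hoxb2 with -0.47 to Hoxb4 with 0.15. In stellate or fibroblast-like cells the ratio was -0.05 for Hoxa, -0.07 for Hoxb, 0.54 for Hoxc and -0.14 for Hoxd. Of 3 members tested 0 were higher and 0 lower, beside 5.03% and 3.24% of all genes. Library, mouse and genotype cannot be told apart in these ratios.

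Fragment length gives a readout that the choice of members did not use, since fragments no longer than the DNA wrapped around a nucleosome are typical of open stretches. Among all fragments of the called cells, 61.1% in library 1 and 62.7% in library 2 were this short, and they are called short below. In endothelial-like cells 70.8% (66.3 to 75.1) and 68.1% (63.1 to 72.7) of Hoxa fragments were, against 63.5% and 62.9% of all their fragments. In Kupffer-like cells of library 1 the share was 55.3% (49.9 to 60.6) for Hoxa, 42.5% (34.0 to 51.4) for Hoxc and 39.1% (27.1 to 52.1) for Hoxd, against 59.6% of all their fragments. Not every class or library followed this: 65.9% (58.6 to 72.8) of Hoxa fragments were short in Kupffer-like cells of library 2, and 64.7% (38.3 to 85.8) of Hoxc fragments in stellate or fibroblast-like cells of library 1, where 64.7% of all fragments were. In Kupffer-like cells of library 2, 77.6% (73.3 to 81.6) of Hoxd fragments were short, with a median of 68 bases. Without the 2 cells the share was 49.4% (37.9 to 60.9), with a median of 150 bases, against 62.0% of all fragments of the class.

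Genes whose products act with or on the Hox clusters were read from lists, each gene by its own fragments. These genes took part in the clustering, so their ratios between classes are a description. Of 9 cofactors that bind DNA with Hox proteins, 9 could be compared between endothelial-like and Kupffer-like cells in library 1, with 3 higher and 1 lower, and 8 in library 2, with 2 higher and 0 lower. Of all genes in these comparisons, 9.54% and 9.76% were higher and 11.7% and 10.6% lower, which holds for the counts of the other lists in endothelial-like cells too. Against Kupffer-like cells, 11.5% of all genes were higher in stellate or fibroblast-like cells in each library. Meis2 led in both, with 234 against 19.3 CPM in library 1 (3.60) and 144 against 58.2 CPM in library 2 (1.26). At the other end were Meis3 with -1.29 and Pbx4 with -0.96 in library 1, and Pbx2 with -0.29 and Pbx4 with -0.07 in library 2. In stellate or fibroblast-like against Kupffer-like cells 3 of 9 and 1 of 8 cofactors were higher and 0 lower. Pknox2 had 2.24 and -0.25 there and Meis2 1.99 and 0.07, so that both were called in library 1 alone.

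Of 15 activators, 12 and 13 could be compared between endothelial-like and Kupffer-like cells, with 2 and 2 higher and 0 and 1 lower, near the share of all genes. The retinoic acid receptor gene Rarg was higher in both libraries, with 1.32 and 1.95, and Rarb had 1.81 and 0.62. Psip1, which tethers trithorax complexes, had -0.03 and 1.32, and Cdx1 had -1.15 in library 2. In stellate or fibroblast-like cells 4 of 13 were higher in each library and 0 lower, among them Rarg with 1.18 and 2.54, Rarb with 2.03 and 1.07 and Rara with 1.10 and 1.04. All 3 retinoic acid receptor genes were thus higher than in Kupffer-like cells in both libraries.

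Of 16 Polycomb genes, 16 and 15 could be compared between endothelial-like and Kupffer-like cells, with 1 and 1 higher and 0 and 0 lower. The gene called was Ezh1, a histone methyltransferase of resting cells, with 54.4 against 24.9 CPM (1.13) and 40.0 against 16.5 CPM (1.24). The lowest were Kdm2b with -0.58 and Rnf2 with -0.49. In stellate or fibroblast-like cells Ezh1 had 0.80 and 1.77, and 0 of 16 and 2 of 14 of the list were higher. These counts lie near or below the share of all genes.

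Of 18 other homeobox genes, 6 and 5 could be compared between endothelial-like and Kupffer-like cells, with 1 and 1 higher and 2 and 1 lower, too few genes to set against that share. Meox1, which acts in somites and vessels, was higher, with 30.2 against 2.81 CPM (3.40) and 22.5 against 5.15 CPM (2.07). En2 with -2.08 and Dlx1 with -1.94 were lower in library 1, and Evx2 with -3.20 in library 2, where the 2 cells described above hold part of its fragments. Of 8 mesenchyme factors, 6 of 7 and 5 of 6 were higher in stellate or fibroblast-like than in Kupffer-like cells, beside the 11.5% of all genes. This list holds Tcf21, which is also a marker that named the class. Foxf1 had 4.52 and 5.21. Nr2f2, a factor of venous endothelium and mesenchyme, had 5.53 and 2.15, and it was also higher in endothelial-like than in Kupffer-like cells, with 5.24 and 1.76.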

How the data were processed

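Per the submitters' processing notes, the tools included Signac 0.2.4, Seurat, R 3.6.1, Cell Ranger and Cell Ranger ATAC 1.2.0, with build GRCm38.p5. The authors deposited a table of unique fragments with the count of read pairs behind each, and a table of fragment counts for each barcode. Other deposited columns give how many of these lie in peaks, near gene starts and in blacklisted regions, and a column of 0 or 1 marks the barcodes that the authors called as cells, by a threshold not given in the sources used here. The members and gene lists were chosen with earlier results of these data known.

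A called cell was kept if 1000 or more of its fragments, and 15% or more of them, lay in peaks and no more than 5% were blacklisted (609 of 637 and 562 of 575). Within each library, fragments in 5 kb bins seen in at least 10 cells, without the Hox clusters and 5 kb on each side, went through TF-IDF weighting and truncated SVD to 30 components, of which 29 were used (scikit-learn 1.9.0). A graph of 20 neighbours was clustered by Leiden at resolution 0.5 (leidenalg 0.10.2, igraph 0.11.9). Clustering was done within libraries because most joint clusters came nearly wholly from a single library. A cluster was named from 15 marker lists where its score reached 0.5 and led by 0.2, with 3 markers each in 10% of the cells, a rule set after marker values were seen. No doublet caller was run, no cell was removed as a doublet and the classes may hold doublets.

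Each fragment that overlapped a gene body or the 2 kb on each side was counted once per gene, for 21887 protein-coding genes of the RefSeq table, whose build GRCm38.p6 has the same primary chromosome coordinates as that of the files. Intervals are exact Poisson for CPM, exact binomial for shares and exact conditional binomial for ratios, with 0.5 added to both counts for the ratio itself. The limit of a count of 0 is 3 counts. Interval coverage was checked on simulated independent Poisson counts, the model that the intervals assume. That check holds no pile-ups and so does not give the coverage in these libraries. Every member may be named, and values in full go to the 5 highest and 5 lowest by ratio of those with at least 50 fragments and to the fullest per kb in each cluster. Of the other lists, the 2 highest and 2 lowest genes are named, and others were named after their values were seen. Values of some list genes are not reported here. Computations used Python 3.11.15, numpy 2.4.6, scipy 1.17.1, pandas 2.3.3 and matplotlib 3.10.9. Alternatives were other cell filters, windows, minimums, resolutions and scalings, insertions in place of fragments, clustering with the Hox bins, masked pile-ups, thinned cells and leaving out the cells with most fragments. Libraries aimed at 8000 nuclei and 25000 read pairs for each, with 50 cycles per read.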

Additional observations from a re-analysis of the deposited data

Results flagged for a closer look

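The Hoxd ratio of endothelial-like to Kupffer-like cells had opposite signs in the libraries, 0.56 in library 1 and -2.85 in library 2 on the log2 scale relative to the median gene, and the intervals did not overlap. The Hoxd ratio of stellate or fibroblast-like to Kupffer-like cells did the same, with 1.05 and -2.48. The difference between the libraries was not tested, since each is a single library. Without the 2 cells of each library with most Hoxd fragments the values of library 2 were -0.51 and -0.14.

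Barcodes not called as cells, which no comparison uses, also held Hox fragments, above the level that a count of 0 allows (1.57 CPM in library 1 and 0.316 CPM in library 2). That bar is low: fragments spread evenly over the genome, at 0.367 CPM per kb, would also pass it. The windows span 89.7 kb in Hoxd to 99.5 kb in Hoxb. In library 1 they held Hoxa at 94.0 CPM, Hoxb at 67.9, Hoxc at 37.1 and Hoxd at 25.6. In library 2 they held Hoxa at 72.3 CPM, Hoxb at 83.0, Hoxc at 54.5 and Hoxd at 39.0. Beside the called cells, Hoxa was lower and Hoxc higher in these barcodes in both libraries.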

How the results depend on the processing

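No paired analysis was possible because each suffix is a single library and no test was run. Over 14 alternatives the Hoxa ratio of endothelial-like to Kupffer-like cells stayed past 2-fold in both libraries (1.96 to 2.42, then 1.66 to 2.18), as did that of Hoxb in library 1 (1.59 to 2.02). That of Hoxb in library 2 ranged from 0.73 to 1.40. The Hoxa ratio of stellate or fibroblast-like to Kupffer-like cells ranged from 1.25 to 2.23 and from 1.59 to 2.29, and that of Hoxb from 0.22 to 1.32 and from 0.69 to 0.95. Of the ratios of single members under alternatives, 1038 stayed within their counting interval, 21 moved and 1 reversed. These counts and the 14 alternatives include the scaling, which cannot change a ratio. For cluster ratios, the lower minimum of fragments can only move the median gene. Leaving out cells of at least 100000 fragments removed 0 cells of library 1. The ranges above thus do not rest on 14 separate checks. A member under the minimum in an alternative was not counted for it. Hoxd4, Hoxd9, Hoxd10 and Hoxd11, called higher in Kupffer-like cells of library 2, were thus not counted without the 2 cells with most Hoxd fragments. Ratios of clusters and counts that moved are given by setting, and the cause was not tested.

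With gene bodies alone, the Hoxa ratio of endothelial-like to Kupffer-like cells was 2.42 and 2.18, with 5 and 3 members higher, and that of stellate or fibroblast-like to Kupffer-like cells in library 2 was 2.29, with 3 members higher in library 1. Within 1 kb of the gene starts, where fewer members reach 50 fragments, Hoxb in endothelial-like against Kupffer-like cells had 1.59 and 1.02, with 3 and 1 members higher. There, in stellate or fibroblast-like against Kupffer-like cells of library 1, Hoxa had 1.25, Hoxb 0.22 and Hoxb4 -0.94, which reversed it, with 0 and 0 members higher, and the 2 cells with most gave 41.8% of Hoxd in library 2. With cells thinned to 5000 fragments, which left out 108 and 63 cells, Hoxa had 2.41 in endothelial-like and 2.23 in stellate or fibroblast-like against Kupffer-like cells of library 1, and Hoxb 0.92 in endothelial-like cells of library 2. Thinned counts of members higher were 2 and 2, then 2 and 1, the ratio of library 2 to library 1 in Kupffer-like cells was 0.44 for Hoxa and 3.93 for Hoxd, and the 2 cells gave 61.7% of Hoxd. With pile-ups masked, Hoxb in endothelial-like against Kupffer-like cells of library 2 had 0.73, with 5 members higher, Hoxd in library 2 against library 1 had 1.25, and the 2 cells gave 22.3%. Without the 2 cells with most fragments of the same cluster, an alternative chosen after seeing the data, these values were 0.83, 5 and 1.32.

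For Hoxd in library 2 against library 1, no cell filter gave 3.0, at least 3000 fragments in peaks 3.03, Leiden resolution 1 gave 3.0 and leaving out the 2 cells with most Hox fragments 2.45. Without the 0 and 9 cells of at least 100000 fragments, also chosen after seeing the data, the 2 cells gave 54.2% of Hoxd in library 2. A minimum of 20 fragments gave 13 members higher in endothelial-like cells of library 2, and 12 and 7 in stellate or fibroblast-like cells, and counting insertions gave 10 and 5 in the latter. Depth limits Hoxc and Hoxd: in stellate or fibroblast-like cells of library 2 a count of 0 allows up to 4.74 CPM.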
